A study of Homo sapiens and Mus musculus with 5 samples.

Results

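The activity of human DNA fragments in 2 human lines was set against that in 2 rodent lines, over the alleles that had input DNA in the tables of all 4 lines. These were 1436 of the 1625 alleles in the series, on 922 of 984 fragments around 345 SNPs linked to schizophrenia. Alleles listed with input DNA numbered 1471 for Neuro-2a, 1562 for SH-SY5Y, 1561 for HEK-293T and 1614 for PC-12. The 1436 had the same input counts for every line. Why other alleles were not listed for a line was not tested, and they are outside this comparison. The human lines were SH-SY5Y, a neuroblastoma line, and HEK-293T, an embryonic kidney line. The rodent lines were Neuro-2a, from a mouse neuroblastoma, and PC-12, from a pheochromocytoma of the rat (GEO's organism label for it says mouse). No line was labelled with a treatment, and all received the same plasmid pool. SH-SY5Y, HEK-293T and Neuro-2a had RNA libraries 1, 2 and 3, and PC-12 had RNA libraries 1 and 3 (its replicate 2 was not analysed here), so 6 human libraries were compared with 5 rodent ones, beside 3 input libraries. The libraries hold reporter transcripts, so no marker gene of a line could be read in them. With 2 lines a species, the tests compare these lines and cannot speak for the species.

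In STARR-seq a fragment is cloned into the transcribed part of a reporter plasmid, so an active enhancer drives its own copying into RNA and is read from that RNA. Cells of another species lend their own transcription factors to the human sequence. Factors and their recognition motifs are largely conserved among mammals, while the amount of each factor differs between cell types. A fragment put 50, 100 or 150 bases in front of its SNP, with 150, 100 or 50 behind, and carried allele 1 or allele 2. The bases of the 2 alleles and the sequences of the fragments were not used here. Of the 345 SNPs, 219 lay inside a protein-coding gene, 106 lay outside and 20 were named by rs number only. Gene names hold if the positions are of GRCh38. No source used here gives the build, although chr20 position 63515229 lies beyond the end of chromosome 20 in GRCh37.

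RNA libraries held 5826701 to 9983618 counts and input libraries 6247862 to 8004481 over these alleles. PCR reads without molecular identifiers are not independent molecules, so this depth bounds the counting error only. RNA counts of 0 made up 0.905% to 12.4% of the alleles of a library. The highest share was in HEK-293T replicate 2, and 1045 alleles had no RNA count of 0. Libraries numbered 1 stood apart in all 4 lines: on the first principal component of the alleles with no count of 0 (38.5% of the variance, input cancelled), they scored 0.65 to 0.77, and the other 7 libraries scored from -0.59 to -0.32. HEK-293T replicate 2 stood apart on the second component (17.7%), with a score of 1.03 against -0.43 to 0.13 elsewhere. The median size of the difference between 2 libraries was 0.34 to 0.48 on the log2 scale for a human and a rodent library both numbered 1, against 0.67 to 0.81 between replicate 1 and replicate 2 or 3 of 1 line. For lines of 1 species it was 0.30 to 0.42 between libraries both numbered 1. Among libraries numbered 2 or 3 it was 0.49 to 0.70 for a human and a rodent library. For lines of 1 species it was 0.25 to 0.58 there. The replicate number was a block in the tests by plan. Results without libraries numbered 1 and without HEK-293T replicate 2 stand beside the counts they touch.

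The first question was whether a human fragment read differently in the rodent lines. Activity is the log2 ratio of an allele's share of the RNA, after TMM scaling of the RNA libraries, to its share of the input. The median activity was -0.46 over all alleles, -0.19 over those with no count of 0 and -1.86 over the rest. A value of 0 therefore lay above the typical allele. None of the 1436 alleles differed between human and rodent lines at an adjusted p of 0.05 (0%, quasi-likelihood test of edgeR, adjusted by Benjamini-Hochberg). The smallest adjusted p was 0.0503, shared by 7 alleles. At an unadjusted p under 0.05 there were 174 alleles (12.1%), of which 77 were higher (5.36%) and 97 lower (6.75%) in the human lines. The median log2 ratio of human over rodent was 0.03 over all alleles.

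Other tools drew the line elsewhere. DESeq2 called 88 of 1436 alleles (6.13%), 35 higher and 53 lower in the human lines. By limma-voom 31 alleles passed (2.16%), 11 of them higher and 20 lower. In edgeR's test of the 1045 alleles with no count of 0, 40 passed (3.83%), 12 of them higher and 28 lower. All 40 were among DESeq2's 88, and 25 alleles were called in all 3 of these tests. Without replicate 1 of each line edgeR called 0 alleles (117 at an unadjusted p under 0.05), and without HEK-293T replicate 2 it also called 0 (188). Without both PC-12 libraries 13 alleles passed, 4 higher and 9 lower, and without Neuro-2a replicate 3 there was 1. A fit on the 4 line means, which counts each line once, called 0 with a smallest adjusted p of 0.335 (limma, 73 alleles at an unadjusted p under 0.05).

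Gaps between the species were set beside gaps between lines of 1 species, all on plain line means that do not take out the replicate number. The median size of human minus rodent activity was 0.47 on the log2 scale, against 0.33 between SH-SY5Y and HEK-293T and 0.56 between Neuro-2a and PC-12. For 369 alleles (25.7%) the gap between species exceeded both gaps within species. The species gap is between averages over the lines of a species, while the other gaps are between single lines. Averaging tends to narrow the species gap, so these sizes and this count do not compare like with like. Both human lines lay above both rodent lines at 326 alleles (22.7%) and below them at 280 (19.5%). All 6 human libraries lay above all 5 rodent ones at 8 alleles (0.557%) and below them at 12 (0.836%). With libraries numbered 1 and 3 only, so that each line weighs them equally (chosen after seeing the data), the medians were 0.42 between species, 0.29 between the human lines and 0.54 between the rodent lines. The species gap then exceeded both others at 390 alleles. A size of human minus rodent above 1 was seen for 390 alleles (27.2%) with a count of 0 taken as 0.5, and for 86 (8.23%) of the alleles with no count of 0.

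As single values for a line, 3 features of the libraries were compared. The mean share of alleles at 0 was 1.88% in SH-SY5Y and 4.74% in HEK-293T, against 5.29% in Neuro-2a and 3.20% in PC-12 (exact permutation test over the 4 lines, two-sided, p = 0.667). The SD of activity over alleles with no count of 0 was 1.21 in SH-SY5Y and 1.24 in HEK-293T, against 1.30 in Neuro-2a and 1.16 in PC-12 (exact permutation p = 1). The 10 most abundant alleles held 5.71% of the counts in SH-SY5Y and 5.12% in HEK-293T, against 6.01% in Neuro-2a and 5.94% in PC-12 (exact permutation p = 0.333). That is the smallest p that 6 arrangements of 4 lines allow.

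At a looser adjusted p of 0.1, edgeR called 26 alleles (1.81%), 10 higher and 16 lower in the human lines. Their log2 ratios were 0.51 to 1.58 in size, and none had a count of 0. They came from 20 SNPs, and 6 of these SNPs gave 2 alleles each. All values in the next paragraphs are activities or log2 ratios of human over rodent, each adjusted p is edgeR's over the 1436 alleles unless another tool is named, and none passed 0.05. For SNPs named by the p or the library values of an allele, signs shared by their other alleles are a description only.

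The SNP at chr2 position 199851396, beside the start of FTCDNL1, had a log2 ratio below 0 for all 5 alleles measured. Allele 1 with 50 bases in front had activities of -2.19 (lowest), -1.11 (median) and -0.58 (highest) in the human libraries. In the rodent libraries it had -0.66, 0.04 and 0.56 in Neuro-2a and -0.87 and 0.25 in PC-12. The groups overlapped, because replicate 1 of each rodent line reached into the human range. Its log2 ratio was -1.09 (SE 0.17, adjusted p = 0.0503). Allele 2 of the same fragment had -2.01, -1.56 and -1.15 as lowest, median and highest human activity, against -0.20, -0.69 and -0.53 in Neuro-2a and -0.86 and -0.71 in PC-12. Here every human library lay below every rodent one, with a log2 ratio of -0.94 (SE 0.22, adjusted p = 0.0965). With 100 bases in front the log2 ratios were -1.03 (allele 1, SE 0.37) and -0.46 (allele 2, SE 0.31), and with 150 bases in front allele 2 had -0.14 (SE 0.63).

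This SNP lies in the FTCDNL1 promoter window if the build is GRCh38, as do the SNPs beside ZNF823, a zinc finger gene, and IZUMO1, whose protein joins sperm to egg. The windows below (RefSeq, GRCh38.p14, 300 bases around the gene's start, in the gene's 5′ to 3′ direction) are shown because every allele in a promoter window with an unadjusted p under 0.05 came from these 3 SNPs. They were chosen after the values were seen. Capitals mark the stretch that the fragment with 50 bases in front (FTCDNL1, 97 bases; ZNF823, 175 bases) or with 150 bases in front (IZUMO1, 173 bases) covers. The windows are chr2:199851143-199851442, chr19:11738897-11739196 and chr19:48746860-48747159, all on the minus strand.
FTCDNL1: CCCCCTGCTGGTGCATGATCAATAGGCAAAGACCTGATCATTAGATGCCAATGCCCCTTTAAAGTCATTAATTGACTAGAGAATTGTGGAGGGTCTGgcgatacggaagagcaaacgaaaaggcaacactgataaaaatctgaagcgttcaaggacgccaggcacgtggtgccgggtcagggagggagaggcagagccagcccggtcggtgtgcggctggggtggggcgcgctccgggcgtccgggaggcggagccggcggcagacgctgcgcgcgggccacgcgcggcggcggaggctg
ZNF823: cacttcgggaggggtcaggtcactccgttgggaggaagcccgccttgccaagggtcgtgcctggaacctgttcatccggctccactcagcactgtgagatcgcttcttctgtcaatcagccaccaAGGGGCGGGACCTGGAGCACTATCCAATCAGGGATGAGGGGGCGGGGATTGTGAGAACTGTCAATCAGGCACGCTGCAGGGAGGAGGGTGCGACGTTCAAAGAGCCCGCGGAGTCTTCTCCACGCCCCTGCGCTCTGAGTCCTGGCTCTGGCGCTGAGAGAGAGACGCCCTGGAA
IZUMO1: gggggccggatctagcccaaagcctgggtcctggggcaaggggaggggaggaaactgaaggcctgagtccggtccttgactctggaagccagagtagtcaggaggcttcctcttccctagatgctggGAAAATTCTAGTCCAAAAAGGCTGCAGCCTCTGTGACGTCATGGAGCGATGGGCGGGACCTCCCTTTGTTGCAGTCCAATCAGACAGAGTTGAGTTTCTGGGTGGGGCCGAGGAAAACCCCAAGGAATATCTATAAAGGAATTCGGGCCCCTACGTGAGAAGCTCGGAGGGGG
A search of both strands found the CCAAT box (CCAAT) in the capitals of all 3, the GC box (GGGCGG) in those of ZNF823 and IZUMO1, and the TATA box (TATAAA) and the cyclic AMP response element (TGACGTCA) in those of IZUMO1. Of all 35116 promoter windows, 34.6% hold the first, 45.0% the second, 11.5% the third and 1.8% the fourth. These shares are over whole windows, which are longer than the stretches in capitals.

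The ZNF823 fragment with 50 bases in front had log2 ratios of -1.49 (SE 0.39, adjusted p = 0.122) for allele 1 and -1.50 (SE 0.39, adjusted p = 0.122) for allele 2. Allele 1 had line means of 0.688 in SH-SY5Y and 0.096 in HEK-293T, against 2.355 in Neuro-2a and 0.485 in PC-12. PC-12 thus lay between the human lines. Allele 2 had activities of -1.15, -0.79 and -0.27 as the lowest, median and highest of the human libraries. The rodent libraries had 1.33, 1.05 and 1.32 in Neuro-2a and -0.84 and 0.18 in PC-12. Neuro-2a lay above every human library, while PC-12 replicate 1 lay within the human range. With 100 bases in front both ZNF823 alleles had log2 ratios of -0.29. With 150 bases in front they had 0.08 (allele 1) and 0.15 (allele 2). The IZUMO1 fragment with 150 bases in front had, for allele 2, human activities of -1.27, -0.63 and 0.12. Its rodent activities were -0.10, 1.70 and 1.94 in Neuro-2a and -0.80 and 0.89 in PC-12. Its log2 ratio was -1.45 (SE 0.28, adjusted p = 0.0727), and the lowest rodent values, of replicate 1, lay within the human range.

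Over all fragments that overlap a promoter window, 27 alleles from 6 SNPs, 0 were higher and 7 were lower in human lines at an unadjusted p under 0.05. The shares over all alleles were 5.36% and 6.75%. Their median log2 ratio was -0.29, against 0.03 over all alleles. The grouping was made after values were seen. The 5 alleles of the fragments beside BCL2L12 had log2 ratios of -0.0045 to 0.36.

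Other named alleles with a log2 ratio below 0 lay near EPO, PPDPF and RCBTB1 and in PAK6. The SNP at chr7 position 100715476 lies near EPO, the hormone gene that drives red blood cell production. Allele 2 with 100 bases in front had activities of -0.76, -0.29 and -0.17 as the lowest, median and highest human libraries, against 0.54, 0.42 and 0.49 in Neuro-2a and 1.01 and 0.91 in PC-12. No human library reached a rodent one. The log2 ratio was -1.05 (SE 0.17, adjusted p = 0.0503). The other 3 alleles of this SNP had log2 ratios of -0.83, -0.73 and -0.63.

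The SNP at chr20 position 63515229 lies near PPDPF, a gene named for the growth of pancreatic progenitor cells. Allele 1 with 150 bases in front had activities of -1.62, -0.80 and -0.64 in the human libraries, against 0.45, 0.24 and -0.07 in Neuro-2a and -0.21 and -0.08 in PC-12. Allele 2 had -1.45, -1.07 and -0.74 in the human libraries, against -0.03, -0.19 and 0.24 in Neuro-2a and -0.27 and -0.05 in PC-12. For both alleles all human libraries lay below all rodent ones. Log2 ratios were -1.07 (SE 0.20, adjusted p = 0.0591) and -1.01 (SE 0.18, adjusted p = 0.0503). With 100 bases in front they were -0.47 and -0.33, and with 50 bases in front allele 2 had -0.50 (SE 0.45).

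The SNP at chr13 position 49594829 lies near RCBTB1, a gene of inherited retinal disease. Allele 1 with 150 bases in front had human activities of -1.69, -0.59 and 0.10, against 1.00, 0.41 and 1.02 in Neuro-2a and 1.27 and 0.39 in PC-12. The libraries did not overlap, and the log2 ratio was -1.40 (SE 0.28, adjusted p = 0.0791). Allele 2 had -0.94 (SE 0.17, adjusted p = 0.0503), -1.01 (SE 0.24, adjusted p = 0.102) and -1.03 (SE 0.37, adjusted p = 0.324) with 50, 100 and 150 bases in front. The remaining allele, with 3 counts of 0, had -0.56 (SE 2.74).

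In PAK6, which encodes a p21-activated kinase, the SNP at chr15 position 40275036 gave log2 ratios of -0.74 (SE 0.14, adjusted p = 0.0621) and -0.72 (SE 0.20) for alleles 1 and 2 with 50 bases in front. Allele 1 had human activities of -0.14, 0.30 and 0.73, against 0.60, 1.10 and 1.26 in Neuro-2a and 0.81 and 1.29 in PC-12. Only the lowest rodent library, Neuro-2a replicate 1, lay within the human range. With 100 bases in front both alleles had -0.43, and with 150 bases in front allele 1 had -0.31 (SE 0.40).

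A SNP with no gene close by, at chr8 position 8240516, had unlike values for its 3 placements. With 50 bases in front, allele 1 had human activities of -1.31, -0.81 and 0.44, against 1.19, 0.27 and 0.61 in Neuro-2a and 0.99 and -0.05 in PC-12. Allele 2 had -1.30, -0.67 and 0.47, against 1.09, 0.73 and -0.11 in Neuro-2a and 1.23 and -0.33 in PC-12. Both groups overlapped. The log2 ratios were -1.15 (SE 0.22, adjusted p = 0.0634) and -0.99 (SE 0.17, adjusted p = 0.0503). The 4 alleles with 100 or 150 bases in front had -0.25 to 0.22.

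The SNP rs942820, with no position in the tables, gave a log2 ratio of -1.23 (SE 0.24, adjusted p = 0.0761) for allele 2 with 50 bases in front. That allele had human activities of -1.06, -0.42 and 0.10, against 1.36, 0.88 and 1.00 in Neuro-2a and 0.41 and 0.38 in PC-12, with no overlap. With 150 bases in front allele 2 had -1.07 (SE 0.23, adjusted p = 0.083).

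Fewer of the 26 alleles had a log2 ratio above 0. The SNP at chr2 position 25376303 lies near DTNB, whose protein belongs to the dystrophin complex. Its allele 2 with 150 bases in front had human activities of 0.55, 3.60 and 4.04, against 0.06, 2.72 and 2.89 in Neuro-2a and -0.21 and 2.46 in PC-12. Replicate 1 was lowest in all lines, so the groups overlapped across numbers, and the log2 ratio with the number as block was 1.03 (SE 0.17, adjusted p = 0.0503). With 100 bases in front the same allele had 0.96 (SE 0.34, adjusted p = 0.32).

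In CUL9, a cullin of ubiquitin ligases, the SNP at chr6 position 43192637 had a log2 ratio above 0 for both fragments measured. Allele 1 with 100 bases in front had human activities of -0.79, -0.38 and 0.28, against -0.35, -1.34 and -1.48 in Neuro-2a and -0.61 and -1.57 in PC-12. Its log2 ratio was 0.88 (SE 0.15, adjusted p = 0.0503), and replicate 1 of the rodent lines overlapped the human libraries. With 50 bases in front the log2 ratio was 1.07 (SE 0.23, adjusted p = 0.0836).

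In EXOC4, a subunit of the exocyst that docks secretory vesicles, allele 1 of the SNP at chr7 position 133753379 with 150 bases in front had human activities of -1.04, -0.57 and 0.43. The rodent libraries had -1.11, -1.21 and -2.15 in Neuro-2a and -1.25 and -1.57 in PC-12, all below the human ones. The log2 ratio was 0.93 (SE 0.21, adjusted p = 0.0874), and that of allele 2 was 0.83 (SE 0.42). In DCAF1, a substrate receptor of a ubiquitin ligase, allele 2 of the SNP at chr3 position 51415309 with 100 bases in front had human activities of 0.07, 0.31 and 0.51. Against these stood -0.29, -0.45 and -0.07 in Neuro-2a and 0.05 and -0.54 in PC-12, again with no overlap, and a log2 ratio of 0.58 (SE 0.17, adjusted p = 0.185). With 50 bases in front, alleles 1 and 2 of this SNP had log2 ratios of 0.13 and 0.50. With 150 bases in front they had 0.08 and -0.17.

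In SLCO6A1, an organic anion transporter gene, 5 of the 6 alleles of the SNP at chr5 position 102388171 had both human lines above both rodent lines. The share over all alleles was 22.7%. This SNP was named because all human libraries lay above all rodent ones at allele 1 with 150 bases in front. Its alleles also share libraries and part of their sequence, so the count is a description only. Allele 1 with 150 bases in front had human activities of 0.10, 0.26 and 0.99, against -1.77, -0.15 and -0.72 in Neuro-2a and -4.31 and -0.71 in PC-12. Its log2 ratio was 1.60 (SE 0.65, adjusted p = 0.365). Allele 2 with 50 bases in front had 1.04 (SE 0.24, adjusted p = 0.0965). At another SNP of SLCO6A1, chr5 position 102434022 (named after its values were seen), allele 1 with 50 bases in front had the opposite sign, -1.25 (SE 0.27, adjusted p = 0.0839). In CACNA1C, the pore-forming subunit of an L-type calcium channel, allele 2 of the SNP at chr12 position 2237227 with 50 bases in front had human activities of -0.13, 0.12 and 0.54. The rodent libraries had -5.11, -2.23 and -0.84 in Neuro-2a and -0.58 and -0.70 in PC-12, all lower, and the log2 ratio was 1.58 (SE 0.65, adjusted p = 0.367). The 2 alleles with 150 bases in front had -0.77 (SE 1.15) and -1.38 (SE 1.08).

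Of the alleles whose human and rodent libraries did not overlap, 3 held a count of 0. In OSBPL10, an oxysterol-binding protein gene that also holds ZNF860 at this SNP, at chr3 position 31997390, allele 1 with 150 bases in front had 34701, 309 and 1233 counts in the SH-SY5Y libraries, and HEK-293T had 19175, 0 and 626. Neuro-2a had 22367, 40370 and 36695 counts and PC-12 had 45871 and 30446. In activity the human lines' replicate 1, at 1.47 and 1.29, came close to the rodent values of 1.61 to 2.43, while their replicates 2 and 3 were at -2.67 or lower. The log2 ratio was -4.81 (SE 1.73, adjusted p = 0.32), and DESeq2's adjusted p was 0.00781. By limma-voom it was -0.91 (adjusted p = 0.486), with libraries numbered 1 alone -0.60, with those numbered 2 alone -8.09 and without Neuro-2a replicate 2 -2.95. The other 5 alleles of the SNP had -0.23 to -2.83.

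Beside the protocadherin alpha cluster, at chr5 position 140774630, allele 1 with 100 bases in front had human activities of -0.41, -0.27 and -0.07. The rodent values were -0.88, a count of 0 and -2.01 in Neuro-2a and -0.67 and -1.09 in PC-12, and the log2 ratio was 1.66 (SE 1.24, adjusted p = 0.735). Allele 2 of the same fragment, also with a count of 0, had 1.25 (SE 1.25). With 50 bases in front, alleles 1 and 2 had log2 ratios of -0.78 and 0.07, and with 150 bases both had 0.35. The gene nearest to chr2 position 48276422 was FOXN2, a forkhead transcription factor gene, 37237 bases away. Allele 2 of this SNP with 150 bases in front had a count of 0 in HEK-293T replicate 2. Its median human activity was -0.40 and its highest -0.02, against 0.20, 0.29 and 0.80 in Neuro-2a and 0.39 and 0.51 in PC-12, with a log2 ratio of -1.21 (SE 1.09, adjusted p = 0.822). With 50 bases in front, alleles 1 and 2 of this SNP had log2 ratios of 0.50 and -0.26. With 100 bases in front they had -0.43 and -0.01.

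Among the 1045 alleles with no count of 0, the 3 with the highest mean activity over the lines had high means in all 4. In the order given below, their mean input counts were 426, 760 and 562.7. The median over all alleles was 3848, and activity divides by the input. Their activity was far lower in libraries numbered 1 than in the others. PC-12's line means rest on 1 library numbered 1 and 1 numbered 3, and those of the other lines on 1 of each number. The first was allele 2 at chr15 position 84581411, 19598 bases from ZSCAN2, with 100 bases in front. Its line means were 3.64 in SH-SY5Y and 3.58 in HEK-293T, against 3.33 in Neuro-2a and 3.80 in PC-12. In libraries numbered 1 it had 0.475 to 2.007, and its log2 ratio with the number as block was -0.22 (SE 0.27). Allele 1 in ANKRD63, at position 40279991 of chr15 with 50 bases in front, had 3.51 and 3.45 in the same human lines. Neuro-2a and PC-12 had 3.04 and 2.96. In libraries numbered 1 this allele had -0.992 (Neuro-2a) to 1.307 (HEK-293T), and its blocked log2 ratio was 0.05 (SE 0.36). In DPEP1, a kidney dipeptidase gene, the allele was allele 2 at chr16 position 89631217 with 150 bases in front. It had 3.48 and 3.396 in the human lines, against 2.89 and 2.74 in the rodent ones. In libraries numbered 1 it had -0.724 (Neuro-2a) to 0.783 (HEK-293T), and its blocked log2 ratio was 0.27 (SE 0.24). The lowest of these 1045 was allele 1 in MANBA, the gene of lysosomal beta-mannosidase, at chr4 position 102730805 with 100 bases in front. It had -5.48 in SH-SY5Y and -5.02 in HEK-293T, against -5.24 in Neuro-2a and -5.60 in PC-12. The low alleles in PLCL1, with -4.00 and -5.72 in the human lines against -2.63 and -4.19 in the rodent ones, and in MAU2, a cohesin loader gene, with -4.60 and -4.13 against -2.02 and -4.17, were higher in Neuro-2a than in the other lines.

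PPP2R3A, which encodes a regulatory subunit of a serine/threonine phosphatase, held 2 SNPs and 11 alleles. At chr3 position 136050568, both alleles with 50 bases in front had log2 ratios of -0.89 (SE 0.36) and -1.15 (SE 0.29, adjusted p = 0.122), and the 4 alleles with 100 or 150 bases in front had 0.09 to 0.55. At position 136095167, allele 1 with 50 bases in front had human activities of -0.38, -0.23 and 0.19, against -0.62, -0.70 and -0.88 in Neuro-2a and -0.54 and -0.86 in PC-12. The libraries did not overlap, and the log2 ratio was 0.52 (SE 0.12, adjusted p = 0.102). In the protocadherin gamma cluster, which encodes neuronal adhesion proteins, 5 alleles of 1 SNP had log2 ratios of -0.87 to 2.83. The second MANBA allele, with 1 count of 0, had 1.25 (SE 1.35).

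The log2 ratios of allele 1 and allele 2 of a fragment had a Pearson's r of 0.58 over 281 fragments with no count of 0, and of 0.32 over all 514. Between placements of the same allele with no count of 0, r was 0.36 (50 and 100 bases in front, 178 pairs), 0.37 (100 and 150, 201 pairs) and 0.25 (50 and 150, 192 pairs). These correlations are across fragments of the same 11 libraries, and the members of a pair share most or part of their sequence, so they are descriptions only. Differences between these values of r were not tested.

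By groups of alleles, 14.5% of the 462 alleles with 50 bases in front had an unadjusted p under 0.05 (25 higher and 42 lower in human lines). With 100 bases in front the share was 11.7% (32 higher and 25 lower), and with 150 it was 10.3% (20 higher and 30 lower). For allele 1 it was 11.35% and for allele 2 12.8%, near the 12.1% of all alleles. The share moved with the depth of the input: 3.9%, 7.24%, 14.5% and 22.8% in 4 equal parts of the alleles ordered by mean input count, low to high. Of the 391 alleles with a count of 0, 0.51% had such a p, against 16.5% of the 1045 without.

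Of the 898 alleles of SNPs inside a gene 11.1% had an unadjusted p under 0.05 (38 higher and 62 lower), and 14.0% of the 450 outside (35 higher and 28 lower). The 247 alleles over 10 kb from any gene gave 19 higher and 6 lower, with a median log2 ratio of 0.15. Over all alleles the shares were 5.36% higher and 6.75% lower. The directions outside genes differed with the test and the threshold. After adjustment, limma-voom called 2 higher and 12 lower outside genes, and 0 higher and 3 lower over 10 kb from them. Over all alleles it called 11 higher and 20 lower. Over alleles with no count of 0, edgeR called 2 higher and 14 lower outside genes, and 0 higher and 3 lower over 10 kb from them. In all it called 12 higher and 28 lower there. DESeq2 called 14 higher and 19 lower outside genes, and 7 higher and 3 lower over 10 kb from them. Its calls over all alleles were 35 higher and 53 lower. In the gene lists 0 alleles passed edgeR's adjusted p of 0.05. Among 8 alleles (2 SNPs) in voltage-gated calcium channel genes 1 was higher and 0 lower at an unadjusted p under 0.05. Among 17 (4 SNPs) in glutamate receptor genes 0 were higher and 1 lower. Among 29 alleles (6 SNPs) in genes of transcription and chromatin 0 were higher and 2 lower, with a median log2 ratio of -0.22. The list of neuronal adhesion and synapse genes held only the 5 alleles of the protocadherin gamma SNP, 1 higher and 1 lower. These few alleles stand beside 5.36% higher and 6.75% lower over all alleles.

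In a list of loci that earlier results of these data had named, 86 alleles gave 6 higher and 14 lower at an unadjusted p under 0.05, with a median log2 ratio of -0.15. This is 23.3% against 12.1% of all alleles, but the list was chosen with these same counts known, so its counts are a description and no evidence of a difference from other alleles. At that unadjusted p, lower alleles were 3 of 6 in FURIN, a protease that cuts precursor proteins (median -0.82), 3 of 4 in ITIH1, a heavy chain of the inter-alpha-trypsin inhibitors (median -1.10), 2 of 4 in NT5C2, a cytosolic nucleotidase (median -0.37), and 2 of 13 in MSRA, which repairs oxidised methionine (median -0.35). PLCL1 had 2 of 12 higher (median 0.25). After adjustment DESeq2 called 2 higher and 8 lower in this list (6.13% of all alleles were called), limma-voom 0 higher and 2 lower (2.16% of all), and edgeR over the 67 alleles with no count of 0 called 0 higher and 3 lower (3.83% of all).

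The second question was whether the effect of an allele differed between human and rodent lines. The allelic effect is the activity of allele 2 minus that of allele 1 of a fragment. None of 514 fragments passed an adjusted p of 0.05 (0%, edgeR, smallest adjusted p 0.765), and 8 had an unadjusted p under 0.05 (1.56%). By limma-voom 0 passed (16 at an unadjusted p under 0.05), and DESeq2 called 1. In edgeR's test of the 281 fragments with no count of 0, 0 passed, with a smallest adjusted p of 0.129. There 13 had an unadjusted p under 0.05. Over all 514 fragments, with a count of 0 taken as 0.5, the median size of the allelic effect was 0.875 in human lines and 0.878 in rodent lines, the median size of their difference was 0.53, and 190 fragments differed by over 1. Over the 281 fragments with no count of 0 the median size of the allelic effect was 0.53 in human lines and 0.64 in rodent lines, the median size of their difference was 0.26, and 16 fragments differed by over 1.

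The fragment called by DESeq2 lies near CTSF, the gene of the lysosomal protease cathepsin F, at chr11 position 66573497 with 50 bases in front. Its allelic effect was 1.27, 2.59 and 3.44 as the lowest, median and highest of the human libraries. In the rodent libraries it was -0.12, 1.42 and 1.89 in Neuro-2a and 0.26 and 0.59 in PC-12. The effect was positive in 10 of 11 libraries, and among the human libraries only HEK-293T replicate 1 lay below Neuro-2a replicates 2 and 3. Human minus rodent was 1.66 (SE 0.37, adjusted p = 0.765 by edgeR, 0.00128 by DESeq2 and 0.385 by limma-voom). In edgeR's test of fragments with no count of 0 its adjusted p was 0.129.

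The other fragments with the smallest p were spread over 4 genes. In FAM184A, at chr6 position 119023381, the allelic effect was 0.00 in SH-SY5Y and 0.09 in HEK-293T, against -1.32 in Neuro-2a and -0.25 in PC-12, a difference of 1.01 (SE 0.37). In TCF4, a basic helix-loop-helix transcription factor gene, at chr18 position 55532886, it was -0.19 and -0.40 in the human lines, against -1.28 and -0.70 in the rodent lines (0.77, SE 0.31). Near TBL1XR1, a subunit gene of a corepressor complex, at chr3 position 177010804, it was 0.44 and 0.48, against 1.98 and 0.39, so Neuro-2a alone stood apart (-0.99, SE 0.42). In ANKRD63 the fragment with 150 bases in front had 0.17 and 0.20 in the human lines, against 0.94 and 0.56 in the rodent lines (-0.63, SE 0.27). Each of these 4 had an adjusted p of 0.993.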

How the data were processed

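Deposited tables, 1 for each line, held whole-number read counts per allele of a fragment in each RNA and input library, unnormalized per the file headers. The submitters' processing notes name limma 3.40.6. No aligner, counter or build is named in the sources used here. Per the labels' protocols, RNA and input libraries were biological replicates made by PCR. Counts were joined by fragment and allele. In R 4.3.3, edgeR 4.0.16 (quasi-likelihood test, TMM scaling, mean count of at least 10, Benjamini-Hochberg adjustment over all alleles, two-sided) fitted the RNA counts with replicate number and species of the line as terms. The input is common to all lines and cancels. The block was part of the plan. Libraries with the same number deviated from their line's mean together in 15 of 15 pairs (r = 0.146 to 0.708). Of 30 pairs with different numbers, 9 also had an r over 0.1 (r = -0.682 to 0.538 over the 30). Centring itself ties such deviations.

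The allelic test, on 514 fragments with both alleles, had library, allele, allele by replicate number and allele by species as terms. Activities in the text take a count of 0 as 0.5. Alternatives were DESeq2 1.42.0, limma 3.58.1 and other filters, scalings and sets of libraries. A minimum count of 50, or none, kept the same alleles. The code was tested on simulated data. The members and gene lists were chosen with earlier results of these data known. Named alleles were the 10 with the smallest p, the 5 largest differences each way among those with no overlap between libraries, the 3 highest and 3 lowest in mean activity over the 4 lines among alleles with no count of 0, the 5 fragments with the smallest p for allelic effect, alleles of SNPs in PPP2R3A, MANBA, the protocadherin gamma cluster and OSBPL10, and the other alleles and placements of these SNPs. Genes are those of RefSeq on GRCh38.p14. Strand of the placement was taken as plus.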

Additional observations from a re-analysis of the deposited data

Results flagged for a closer look

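Among 54 groups of 5 or 6 libraries looked at, 5 had a highest or lowest library farther from its nearest neighbour than Dixon's 95% critical value allows, where chance gives about 1 group in 20. In EXOC4, allele 1 of the SNP at chr7 position 133753379 (150 bases in front) had an activity of 0.43 in HEK-293T replicate 1, above the other human libraries. In SLCO6A1, allele 1 at chr5 position 102388171 (150 bases in front) had 0.99 in HEK-293T replicate 3, also above the others. Beside the protocadherin alpha cluster, allele 1 at chr5 position 140774630 (100 bases in front) had a count of 0 in Neuro-2a replicate 2, an activity of -14.32 with 0 taken as 0.5. Near FOXN2, allele 2 at chr2 position 48276422 (150 bases in front) had a count of 0 in HEK-293T replicate 2, which gives -11.77. That library also had 12.4% of its alleles at 0, against 0.905% to 2.09% in the other human libraries.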

How the results depend on the processing

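The count of alleles that differed between human and rodent lines, 0 in edgeR, moved to 88 with DESeq2, 31 with limma-voom, 26 with limma-voom and line as a random block, 5 with DESeq2 size factors in edgeR, 40 over alleles with no count of 0, 42 with the input libraries in the fit, 26 at an adjusted p of 0.1 and 13 without PC-12. Libraries numbered 1 alone gave 2, those numbered 2 gave 0 and those numbered 3 gave 1. Leaving out 1 library or 1 replicate number gave 0 to 1. With no replicate block 0 alleles passed and 96 had an unadjusted p under 0.05, against 174 with it. With line as the term, on line means, without any other line, at 0.01, or under other count minimums it stayed 0. It also stayed 0 without the 2 libraries with the most counts of 0, with or without replicate 1 of each line as well, 2 fits chosen after seeing the data (196 and 148 at an unadjusted p under 0.05). The cause of these differences was not tested.

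The allelic count, 0, became 1 with DESeq2 and was 0 with no replicate block, with every library or line left out and in the other fits run. The share of alleles whose gap between species exceeded both line gaps was 31.2% where no count was 0, and that of gaps above 1 was 8.23% there, and 22.2% with libraries numbered 1 and 3 only (chosen after seeing the data). The 19 named alleles kept the sign of their log2 ratio in all 681 values under these alternatives, and the 5 fragments kept theirs in all 110. The alleles were chosen for a small p or for libraries that did not overlap, and the fragments for a small p. Alternatives that changed only the adjusted p or the count minimum repeated the main fit. The kept signs are therefore no separate evidence of a difference.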
